A study of Mus musculus and Ictidomys tridecemlineatus with 36 samples.

Results

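Wide distal H3K27ac domains were H3K27ac CUT&RUN peaks at least 4000 bp wide that overlapped no H3K4me3 peak of the same species. They were chosen by the measured width of the H3K27ac peak and by the absence of H3K4me3, so neither of these is a finding here. In the 13-lined ground squirrel (13LGS), 1317 of 93999 H3K27ac peaks met the rule, and in mouse 484 of 62930 did. They made up 1.40% of the 13LGS and 0.769% of the mouse H3K27ac peaks, but 10.4% and 5.97% of the bases under H3K27ac. CUT&RUN uses an antibody to tether a nuclease that cuts out the DNA around a histone mark or a bound protein, and the released fragments are sequenced. Nuclei came from snap-frozen retinas of P5 13LGS, pooled from 2 individuals, and of P2 mice, pooled from 3 individuals, with 500000 and 385000 nuclei per reaction. No treatment or mutation is named for either species, and the strain of these mice is not given in the sources used here. Each species had 5 targets (H3K4me3, H3K27ac, H3K4me1, Otx2 and Neurod1) and an IgG control, which came to 36 libraries in all.

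Every list pools all libraries of its target. The 13LGS histone lists rest on 1 library each and the mouse histone lists on 2, whereas Otx2 rests on 6 and 8 libraries and Neurod1 on 4 and 4. These factor libraries are technical replicates from 2 biological replicates per species. The Otx2 libraries mix antibodies from R&D Systems and Atlas, and in 13LGS the Atlas antibody was used for biological replicate 2 only. A difference between the species therefore cannot be told apart from the number of libraries, the antibody mix, the age or the unknown read depth. No list holds replicate values, so no test was run, and each interval beside a share is a 95% Wilson interval for the counting error alone. As a check of the tissue, an H3K4me3 peak lay within 1000 bp of the 5′ end of 20 of 22 listed progenitor genes, 11 of 14 photoreceptor transcription factor genes and 10 of 12 Müller glia genes in mouse. Photoreceptor function genes had one at 7 of 20 and bipolar genes at 3 of 12, both below the share of all protein-coding genes, which was 52.7%. It was found at 2 of 9 pigment epithelium, 2 of 10 vascular, 0 of 8 microglial and 0 of 6 astrocyte and lens markers.

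H3K27ac is laid down by acetyltransferases at active promoters and enhancers. H3K4me1 marks enhancers more broadly, and H3K4me3 marks promoters, so acetylated regions without H3K4me3 are commonly read as active enhancers. Long stretches of H3K27ac, in which many regulatory elements lie side by side, are known from many tissues near genes of cell identity. Otx2 is a homeodomain transcription factor (TF) needed for photoreceptor and bipolar fates, and Neurod1 is a basic helix-loop-helix TF of photoreceptor and amacrine precursors that binds E-boxes.

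The strongest factor peaks in the mouse domains are shown first, because most results turn on where these TFs lie within the acetylated stretch. The first 5 windows are centred on the Otx2 summit of the domains that were among the 10 highest for both Otx2 and Neurod1 fold enrichment over IgG. The sixth holds the highest Otx2 fold of any mouse domain, and the last is centred on the H3K27ac summit of the widest domain with neither factor. Each is 300 bases of the plus strand of GRCm38, and none overlaps a UTR. Capitals mark the homeodomain cores TAATC and TAAGC and the E-box CAGATG, searched on both strands.
nearest to *Cplx2*, chr13:54322590-54322889: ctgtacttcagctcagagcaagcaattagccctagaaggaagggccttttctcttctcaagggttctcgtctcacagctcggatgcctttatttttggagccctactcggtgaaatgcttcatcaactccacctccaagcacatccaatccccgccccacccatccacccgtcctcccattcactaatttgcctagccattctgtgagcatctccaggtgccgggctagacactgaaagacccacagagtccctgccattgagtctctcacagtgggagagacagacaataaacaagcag
*Bcl2l1* intron, chr2:152804520-152804819: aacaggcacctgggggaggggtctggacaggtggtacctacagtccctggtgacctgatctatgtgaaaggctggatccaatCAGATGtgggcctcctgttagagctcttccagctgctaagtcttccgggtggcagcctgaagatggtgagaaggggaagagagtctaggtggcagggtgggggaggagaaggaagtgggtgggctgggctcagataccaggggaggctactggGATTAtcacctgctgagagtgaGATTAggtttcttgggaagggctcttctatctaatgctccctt
*Dscam* intron, chr16:96843838-96844137: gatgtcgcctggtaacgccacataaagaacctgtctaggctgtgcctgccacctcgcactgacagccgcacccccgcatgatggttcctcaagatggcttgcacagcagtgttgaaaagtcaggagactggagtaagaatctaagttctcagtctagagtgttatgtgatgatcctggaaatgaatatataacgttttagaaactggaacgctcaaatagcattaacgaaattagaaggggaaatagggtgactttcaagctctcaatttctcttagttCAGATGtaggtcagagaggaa
*Poc1b* intron, chr10:99128027-99128326: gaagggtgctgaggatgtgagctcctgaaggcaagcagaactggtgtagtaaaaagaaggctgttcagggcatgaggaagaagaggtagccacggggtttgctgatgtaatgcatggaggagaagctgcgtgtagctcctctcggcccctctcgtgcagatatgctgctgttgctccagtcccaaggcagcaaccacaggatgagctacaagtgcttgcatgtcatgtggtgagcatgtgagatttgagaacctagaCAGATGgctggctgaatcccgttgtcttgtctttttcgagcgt
nearest to *Cd180*, chr13:102504353-102504652: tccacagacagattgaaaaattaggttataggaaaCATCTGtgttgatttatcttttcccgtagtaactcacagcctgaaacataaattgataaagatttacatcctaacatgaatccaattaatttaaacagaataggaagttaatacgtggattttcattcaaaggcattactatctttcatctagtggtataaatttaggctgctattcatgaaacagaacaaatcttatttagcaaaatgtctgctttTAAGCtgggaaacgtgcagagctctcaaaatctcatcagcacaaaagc
nearest to *Gm9733*, chr3:15205779-15206078: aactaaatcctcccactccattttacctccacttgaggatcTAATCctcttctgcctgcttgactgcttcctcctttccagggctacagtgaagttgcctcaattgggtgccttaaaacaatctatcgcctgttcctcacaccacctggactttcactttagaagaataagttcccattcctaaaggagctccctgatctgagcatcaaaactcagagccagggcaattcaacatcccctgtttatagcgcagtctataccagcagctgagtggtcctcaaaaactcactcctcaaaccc
*Tspan15* intron, chr10:62194637-62194936: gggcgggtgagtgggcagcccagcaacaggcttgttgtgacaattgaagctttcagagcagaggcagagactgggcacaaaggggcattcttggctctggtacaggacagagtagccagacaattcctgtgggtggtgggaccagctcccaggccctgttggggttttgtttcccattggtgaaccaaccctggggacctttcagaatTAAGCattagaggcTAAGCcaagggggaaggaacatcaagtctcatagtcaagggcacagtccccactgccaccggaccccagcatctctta

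In the first 5 windows the Neurod1 summit lay −52, 13, −5, −22 and 5 bp from the Otx2 summit, in the order shown. The E-box CAGATG was present in 4 of these 5 windows, and the one nearest to *Cplx2* held none of the 3 motifs. In windows of this length, CAGATG was found at 31.5% of all Otx2 summits and 60.2% of all Neurod1 summits in mouse domains. The 5 windows were chosen for high folds of both factors. Along the plus strand, the E-box started −68, 129, 107 and −115 bp from the Otx2 summit at *Bcl2l1*, *Dscam*, *Poc1b* and *Cd180*. Homeodomain cores were found in 2 of the 5, beside 67.0% of windows at all Otx2 summits in mouse domains. The cores started 85 and 107 bp after the summit at *Bcl2l1* and 102 bp after it at *Cd180*. The *Gm9733* window, where Otx2 reached a fold of 70.7 over IgG, held a single TAATC that started 109 bases before the summit.

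Domain widths ran from 4000 to 28728 bp in 13LGS, with a median of 5113 bp and quartiles of 4425 and 6342 bp. In mouse they ran from 4005 to 17268 bp, with a median of 4889.5 bp and quartiles of 4357.25 and 5936.75 bp. The limit cut through a continuous range of widths. In 13LGS, 102 distal peaks were 3900 bp to just under 4000 bp wide and 81 were 4000 bp to just under 4100 bp wide, and in mouse these numbers were 44 and 28. The 3 members nearest the limit were 4000, 4001 and 4003 bp wide in 13LGS, with H3K27ac folds of 5.09, 6.04 and 6.28, and the 3 peaks just outside it, of 3999, 3998 and 3997 bp, had folds of 4.43, 6.15 and 7.32. In mouse the nearest members were 4005, 4008 and 4020 bp wide with folds of 4.62, 10.1 and 9.57, beside 10.97, 8.35 and 7.92 at 3996, 3995 and 3995 bp. Peaks on either side of the limit thus had H3K27ac folds in the same range. Over all members the median H3K27ac fold was 7.72 in 13LGS and 7.66 in mouse, beside 3.18 and 3.36 for distal peaks of any width. Width and fold come from the same H3K27ac signal, and the difference is given as a description.

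Most domains held Otx2 and a minority held Neurod1. The Otx2 lists were also the longer ones, with 27993 peaks in 13LGS and 29115 in mouse, beside 4658 and 4744 Neurod1 peaks. The part of list length in the difference between the factors was not tested. An Otx2 peak overlapped 966 of the 1317 domains in 13LGS (73.3%, 95% interval 70.9 to 75.7) and 380 of the 484 in mouse (78.5%, 74.6 to 81.9). Among distal H3K27ac peaks of any width, 9.64% in 13LGS and 11.0% in mouse overlapped Otx2. Of distal peaks of 2000 to under 4000 bp, 43.1% and 50.3% did so. Of H3K27ac peaks at least 4000 bp wide with H3K4me3, 93.4% and 96.0% did, a higher share than of the domains. Neurod1 overlapped 296 domains in 13LGS (22.5%, 20.3 to 24.8) and 142 in mouse (29.3%, 25.5 to 33.5), against 2.71% and 3.2% of distal peaks of any width. It overlapped 12.4% and 16.7% of distal peaks of 2000 to under 4000 bp, and 31.25% and 42.4% of the wide peaks with H3K4me3. Both factors were found in 276 domains in 13LGS and 134 in mouse, or 20.96% and 27.7%, beside 1.94% and 2.8% of all distal peaks. Otx2 without Neurod1 was the most frequent state, with 690 domains in 13LGS and 246 in mouse. Neurod1 without Otx2 was rare, with 20 and 8 domains. The remaining 331 domains in 13LGS (25.1%) and 96 in mouse (19.8%) held neither factor.

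A wide peak has more room for a factor peak, so occupancy was also read in 500 bp windows at the H3K27ac summit and per length. In the summit windows, Otx2 was present in 48.1% of 13LGS domains (45.5 to 50.8) and 58.3% of mouse domains (53.8 to 62.6). The same windows held Otx2 in 31.6% and 40.1% of distal peaks of 2000 to under 4000 bp, and in 8.1% and 9.89% of distal peaks of any width. In wide peaks with H3K4me3 the windows held Otx2 in 65.6% and 76.0%. For Neurod1 the shares were 12.4% and 17.98% in domains, 8.88% and 12.3% in peaks of 2000 to under 4000 bp, and 2.22% and 2.73% in distal peaks of any width. By number of factor summits per Mb, the domains were close to the peaks just narrower. Otx2 summits numbered 184 per Mb in 13LGS domains and 174 in peaks of 2000 to under 4000 bp, and 203.1 per Mb in both classes in mouse. Neurod1 summits numbered 44.5 and 47.7 per Mb in 13LGS and 65.0 and 63.2 in mouse. All narrower distal peaks together had 116 Otx2 summits per Mb in 13LGS and 137 in mouse. Wide peaks that did overlap H3K4me3 had the most, with 266 and 315.

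**Figure D1:**
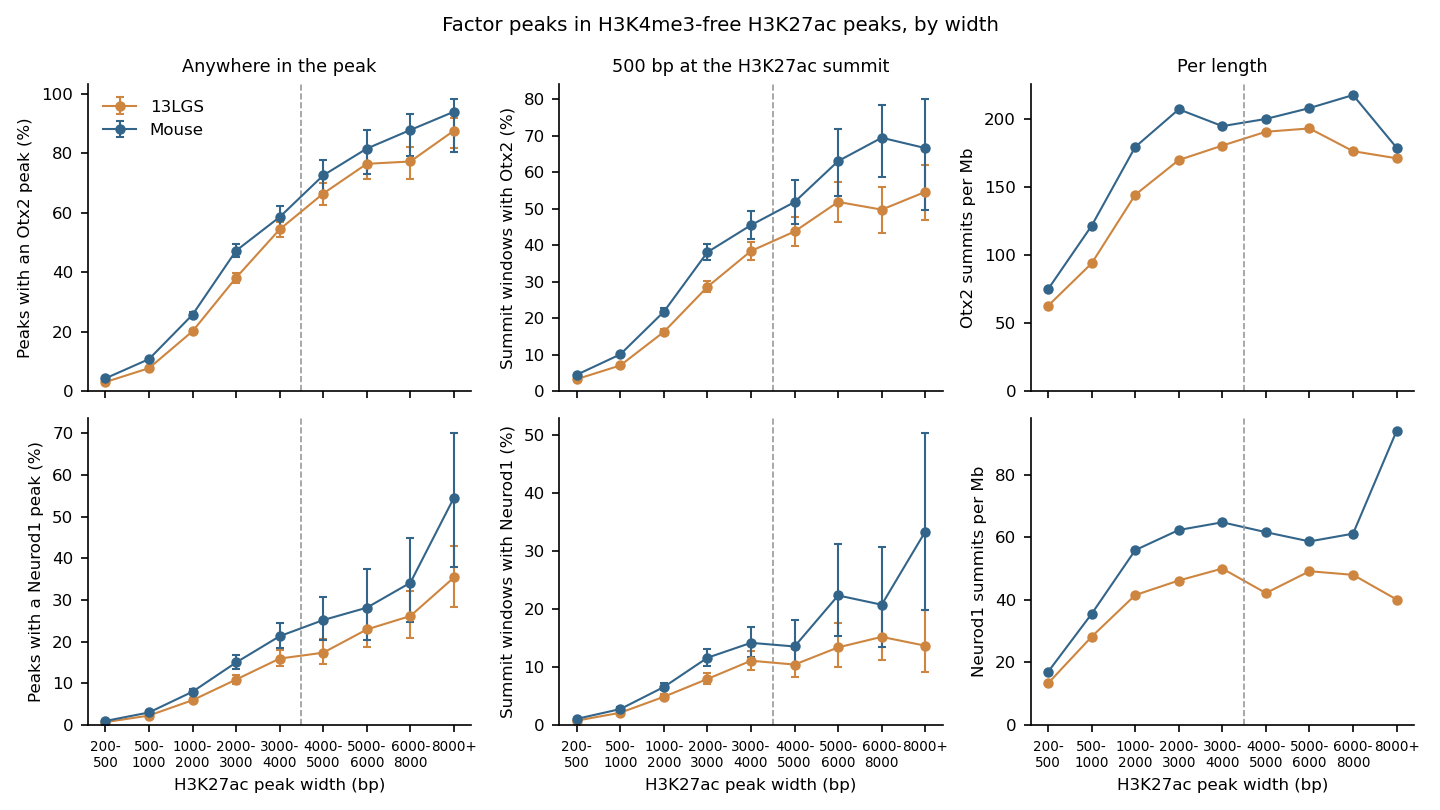
Share of H3K4me3-free H3K27ac peaks with Otx2 (top) or Neurod1 (bottom) anywhere in the peak (left) or in the 500 bp summit window (centre), and factor summits per Mb (right), by H3K27ac peak width in bp, for 13LGS and mouse. Bars are 95% Wilson intervals and the dashed line marks 4000 bp; the shares anywhere in the peak are higher in each wider group, on both sides of the line, whereas from 2000 bp on Otx2 summits stay between 170 and 193 per Mb in 13LGS and between 179 and 218 in mouse.

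Across the domains themselves, the share with Otx2 was 66.4% below 5000 bp and 87.6% at 8000 bp or more in 13LGS, and 72.6% and 93.9% in mouse. The share with Neurod1 was 17.4% and 35.4% in 13LGS and 25.2% and 54.5% in mouse, where the widest group held 33 domains. Otx2 summits per Mb did not follow this order, with 191 in the narrowest and 171 in the widest group in 13LGS and 200.3 and 179 in mouse. Neurod1 summits numbered 42.2 and 40.2 per Mb in these groups in 13LGS and 61.7 and 94.1 in mouse. The domains with neither factor were somewhat narrower, with a median width of 4730 bp in 13LGS and 4592 bp in mouse, beside 5564 and 5199.5 bp for those with both. Their median H3K27ac fold was 6.69 and 7.06, beside 7.94 and 7.75 for domains with both factors.

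Some domains held several Otx2 peaks. At least 2 were found in 25.1% of 13LGS and 26.0% of mouse domains, beside 4.82% and 5.06% of peaks of 2000 to under 4000 bp and 0.789% and 0.573% of all distal peaks. This count has more room in a wider peak, and the most were 7 in 13LGS and 4 in mouse. At least 2 Neurod1 peaks were found in 3.49% and 5.37%. Inside the domains, 291 of 345 Neurod1 peaks in 13LGS (84.3%, 80.1 to 87.8) and 154 of 171 in mouse (90.1%, 84.7 to 93.7) overlapped an Otx2 peak. Over all distal H3K27ac peaks this share was 69.9% and 87.2%, and in peaks of 2000 to under 4000 bp it was 79.9% and 90.9%, so the mouse domains were at the level of other distal peaks. The reverse was far less frequent: 20.1% of the Otx2 peaks in 13LGS domains and 28.3% in mouse domains overlapped Neurod1. Over all distal peaks these shares were 18.8% and 25.4%. The Neurod1 lists are much shorter than the Otx2 lists, and the part of list length in this difference was not tested. Where peaks of both factors overlapped, the median distance between their summits was 71 bp in 13LGS and 54 bp in mouse. Of these pairs, 38.8% and 47.4% lay within 50 bp. For peaks of 2000 to under 4000 bp the medians were 64 and 59 bp, so the spacing in domains was close to that in narrower peaks.

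The factor peaks inside domains were only slightly stronger than the whole lists. The median Otx2 fold was 3.21 in 13LGS domains and 3.85 in mouse domains, beside 3.15 and 3.54 over all Otx2 peaks. For Neurod1 it was 4.28 and 4.43, beside 3.51 and 3.78. In mouse, the highest Otx2 fold per domain had a median of 6.63 in domains that also held Neurod1 and 3.995 in those that did not, and in 13LGS these medians were 4.16 and 3.37.

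Factor summits were concentrated away from the domain ends. The central 50% of the domain length held 72.2% of the Otx2 summits in 13LGS and 68.5% in mouse, and 75.4% and 73.7% of the Neurod1 summits. The outermost 10% at the left end held 3.15% of the Otx2 summits in 13LGS and 3.18% in mouse, and the outermost 10% at the right end 3.64% and 4.31%. The median distance from an Otx2 summit to the H3K27ac summit was 682 bp in 13LGS and 574 bp in mouse. Within 250 bp of the H3K27ac summit lay 26.1% and 28.3% of the Otx2 summits, beside 42.99% and 42.7% in peaks of 2000 to under 4000 bp, where this window takes a larger part of the peak. In peaks of 2000 to under 4000 bp, the central 50% held 74.4% and 76.6% of Otx2 summits, so the concentration away from the ends was found in narrower peaks too.

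**Figure D2:**
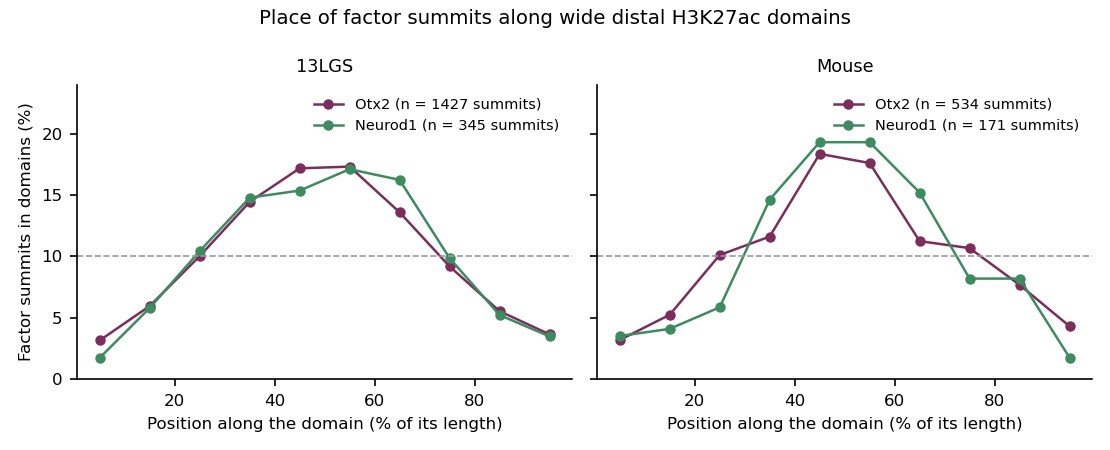
Percentage of the Otx2 and Neurod1 summits inside domains that fell in each 10% of the domain length, for 13LGS (left, 1427 Otx2 and 345 Neurod1 summits) and mouse (right, 534 and 171). The dashed line is the 10% that an even spread would give; in both species the middle of the domain lies above it and the ends below it.

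The widest 13LGS domain, Itri13:48810906-48839633, was 28728 bp long and had 6 Otx2 peaks, the highest at a fold of 5.52, and no Neurod1 peak. Next came Itri3:36611149-36636810, of 25662 bp, with 7 Otx2 peaks and no Neurod1 peak, and Itri6:16974175-16998050, of 23876 bp, with 6 Otx2 peaks and 1 Neurod1 peak. The 10 widest all held Otx2, with 1 to 7 peaks and highest folds between 2.60 and 9.37. They were 18135 bp or wider, and 7 of them held Neurod1. The domain with the highest Otx2 fold in 13LGS was Itri7:35887843-35894364, with an Otx2 fold of 21.97 and a Neurod1 fold of 19.5 in a stretch of 6522 bp. At Itri14:6547752-6552136 both factors were high as well, with folds of 16.7 and 18.3. The highest Neurod1 fold, 25.4, was at Itri5:170245151-170250170, where Otx2 had a fold of 8.90. All 10 domains with the highest Otx2 fold also held Neurod1, and all 10 with the highest Neurod1 fold also held Otx2. The widest domains and those with the highest factor folds were different regions in 13LGS: no domain was among the 10 of both the width and the Otx2 order.

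In mouse the widest domain, chr7:133721161-133738428, was 17268 bp long, with its summit in an intron of *Dhx32*, an RNA helicase gene, and the 5′ end of *Uros*, a heme synthesis gene, 11089 bp away. Its H3K27ac fold was 8.13, with 1 Otx2 peak at 4.75 and 1 Neurod1 peak at 2.83. The next was chr6:30130229-30145931 in *Nrf1*, a TF gene of mitochondrial biogenesis, with 15703 bp, Otx2 at 10.3 and Neurod1 at 5.24. H3K4me1 covered 43.6% of it. After it came chr7:113244965-113257439, 12475 bp in an intron of *Arntl*, the gene of the circadian TF Bmal1, with 3 Otx2 peaks and 2 Neurod1 peaks. *Casz1*, a zinc finger TF gene of mid and late retinal progenitors, had an intronic domain of 11375 bp with folds of 2.35 for Otx2 and 2.51 for Neurod1. *Tspan15*, a tetraspanin gene, had the widest domain with neither factor, chr10:62189843-62200493, of 10651 bp and with an H3K27ac fold of 7.80. Of the 15 widest mouse domains, 14 held Otx2 and 9 held Neurod1.

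The mouse domains with the highest factor folds were of moderate width, from 4420 to 7084 bp for the 10 highest in Otx2. The highest Otx2 fold of any mouse domain, 70.7, lay in chr3:15203634-15209391, outside coding genes and 122911 bp from the 5′ end of *Gm9733*, with a Neurod1 fold of 4.95. A domain 87456 bp from *Snap25*, which encodes a SNARE protein of the synapse, had an Otx2 fold of 34.6 and a Neurod1 fold of 11.5. At 44646 bp from *Cplx2*, the gene of a complexin that binds SNARE complexes, chr13:54321673-54326703 carried the highest Neurod1 fold of any domain, 32.7, beside an Otx2 fold of 19.5. In an intron of *Bcl2l1*, which encodes the survival protein Bcl-xL, chr2:152802947-152807497 had folds of 32.6 for Neurod1 and 20.9 for Otx2. An intronic domain of *Dscam*, a cell adhesion gene of retinal neurons, had a Neurod1 fold of 20.5 and an Otx2 fold of 21.5, and one in *Poc1b*, a centriole and ciliary gene, had 20.4 and 19.9. A domain in an intron of *Tmem243* had a Neurod1 fold of 18.9. A domain in *Dennd1a*, 63755 bp from *Crb2*, a polarity gene of the retina, had an Otx2 fold of 22.3 and a Neurod1 fold of 4.47. Among the 10 domains with the highest Otx2 fold, 9 held Neurod1, the exception being the one nearest to *Apob* (Otx2 fold 26.7).

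**Figure D3:**
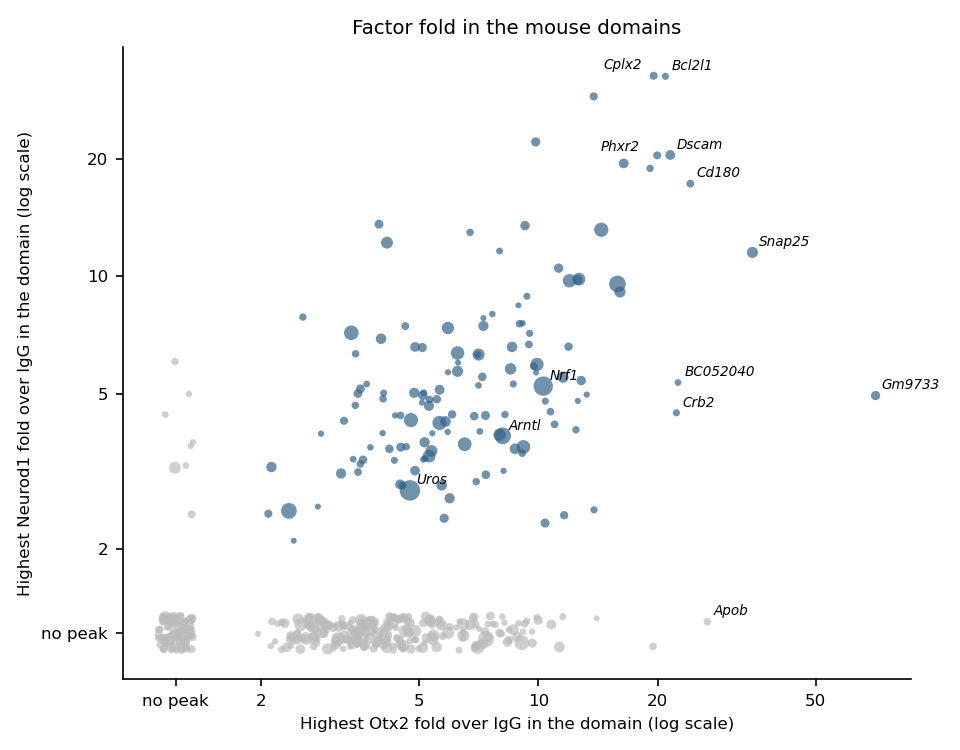
Highest Neurod1 fold over IgG against highest Otx2 fold over IgG in each of the 484 mouse domains, on log scales, with point size following domain width. Domains with both factors are blue, those lacking 1 or both are grey and placed at "no peak"; labels give the gene with the nearest 5′ end for the highest Otx2 folds and the 3 widest domains, and *Gm9733* stands apart at an Otx2 fold of 70.7 with a Neurod1 fold of 4.95.

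Of the 10 domains with the highest H3K27ac fold in mouse, 9 held Otx2 and 4 held Neurod1. The domain with the highest, 23.1, lay in an intron of *Atg10*, an autophagy gene, with Otx2 at 4.90 and no Neurod1 peak. A domain in *Adgrv1*, the gene of a large adhesion receptor of photoreceptors and hair cells, had an H3K27ac fold of 18.7 and neither factor. The *Lrrc49* domain had 19.4, with Otx2 at 4.02 and Neurod1 at 6.92. Only the *Poc1b* domain was among the 10 highest for H3K27ac and for both factors, with an H3K27ac fold of 14.9.

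H3K4me1 was present nearly throughout. All 1317 domains in 13LGS and 483 of 484 in mouse overlapped an H3K4me1 peak, against 68.3% and 57.3% of distal peaks of any width. Among the distal peaks of 2000 to under 4000 bp, 99.3% and 97.5% did so, so nearly all H3K27ac peaks of this size had the mark. H3K4me1 peaks covered 94.0% of the domain bases in 13LGS and 89.6% in mouse, and 650 and 239 domains, 49.4% in each species, lay wholly under them. Peaks of 2000 to under 4000 bp had 92.3% and 89.4% of their bases under H3K4me1, close to the domains, and 57.6% and 60.8% of them lay wholly under it. Coverage was under 50% in 21 domains in 13LGS and 25 in mouse. The exception in mouse was a domain of 4405 bp in an intron of *Wdr75*, chr1:45816325-45820729, with an H3K27ac fold of 5.58 and neither factor. The H3K4me1 peaks at domains were themselves wide, with a median of 5783 bp in 13LGS and 5240 bp in mouse, beside 808 and 805 bp over the whole lists. Their median fold was 12.4 and 11.98, beside 3.96 and 4.25. These H3K4me1 peaks were picked by overlap with regions at least 4000 bp wide, which favours wide peaks. Their width and fold are therefore given as a description. In mouse the median coverage was 99.2% in domains with both factors and 92.0% in those with neither, and in 13LGS it was 99.0% and 98.0%.

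The nearest H3K4me3 peak lay at a median of 47956 bp from a domain in 13LGS and 39243 bp in mouse. An H3K4me3 peak was within 10000 bp of 14.2% and 15.9% of the domains, and within 1000 bp of 9 and 3 domains. The nearest other domain lay at a median of 91841 bp in 13LGS and 588534 bp in mouse, so most domains stood alone. When domains up to 12500 bp apart were joined, 357 of the 1317 in 13LGS (27.1%) and 84 of the 484 in mouse (17.4%) shared a stretch with at least 1 other. The part of the larger number of 13LGS domains in this share was not tested.

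The largest group in 13LGS, Itri7:31383120-31561961, held 15 domains of 4436 to 14837 bp, which covered 66.8% of its 178842 bp. It contained no H3K4me3 peak and no Neurod1 peak in its domains, and 4 of the 15 domains held Otx2, with a highest fold of 6.58. By contrast, the 4 domains of Itri5:6699164-6756028 all held Otx2, with 12 peaks among them, and 3 held Neurod1. At Itri4:105629821-105664918, all 4 domains held Otx2 and 3 held Neurod1, with a Neurod1 fold of up to 8.21, and H3K4me1 covered the whole stretch. In mouse the largest groups had 4 domains each. The one that starts in *Vipr2*, a neuropeptide receptor gene, held Otx2 in 3 of its 4 domains, with a fold of up to 12.4. The one in *Wasf3*, a regulator of actin assembly, held Otx2 in 1 domain and Neurod1 in another. In the 3 domains of *Pmepa1*, 7 Otx2 peaks were found and no Neurod1 peak.

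**Figure D4:**
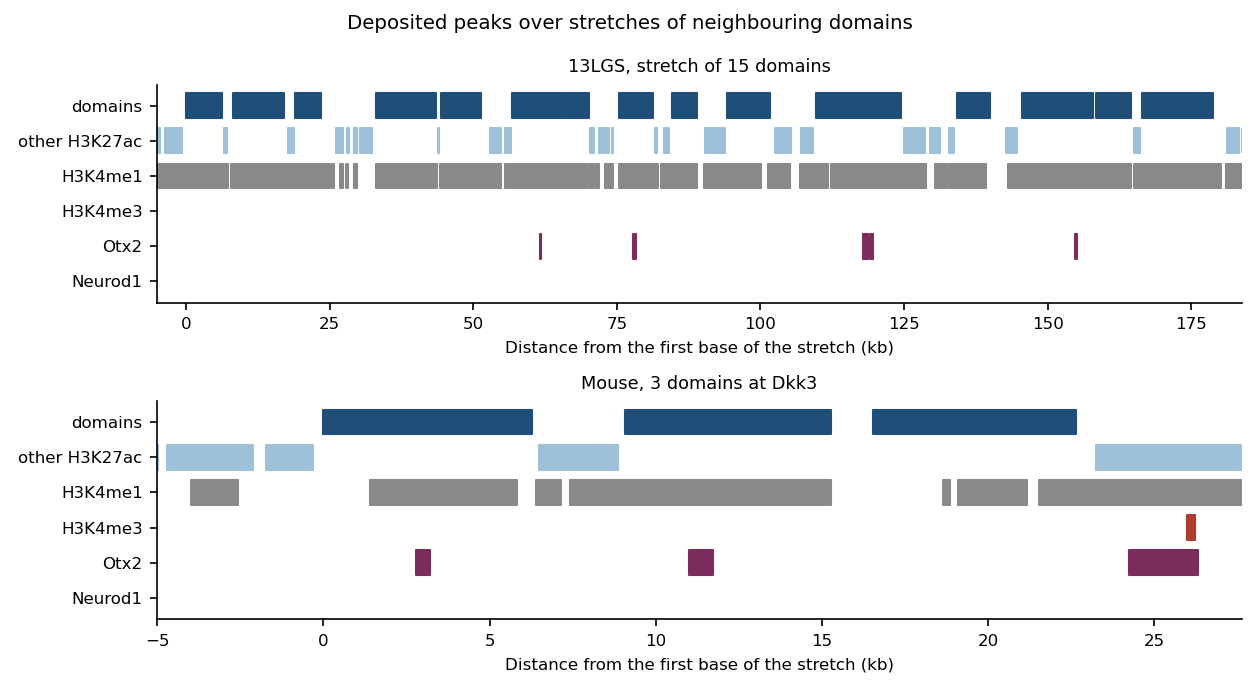
Deposited peaks of 5 targets over the 13LGS stretch of 15 domains (top) and the 3 mouse domains at *Dkk3* (bottom), by distance in kb from the first base of the stretch. Domains and other H3K27ac peaks are drawn in separate rows; H3K4me1 covers 86.7% of the 13LGS stretch, and Otx2 appears in 4 of its 15 domains and Neurod1 in none.

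In mouse, the domains lay mostly in introns. A protein-coding gene body was overlapped by 386 of the 484 domains (79.8%, 75.9 to 83.1), against 67.0% of distal peaks of any width and 67.6% of those of 2000 to under 4000 bp. The H3K27ac summit was in an intron in 345 domains (71.3%, beside 61.5% of all distal peaks), in an exon of a coding gene in 28 and outside coding genes in 111. H3K4me3 was absent by rule, and 36 domains (7.44%) held the annotated start of a coding transcript. This was so for 2.96% of peaks of 2000 to under 4000 bp and 0.879% of all distal peaks. A wider peak has more room for such a start, and the part of width in these shares was not tested. The median gap to the nearest 5′ end of a coding gene was 47617.5 bp, and in 113 domains (23.3%) no such end lay within 100000 bp, beside 41.3% of all distal peaks. A gene was counted as having a domain where the domain overlapped its body or had its 5′ end as the nearest. By this count 489 of 21911 protein-coding genes had a domain, which is 2.23%, and 85 of them had at least 2. Genes with a domain were long, with a median length of 74.8 kb against 16.9 kb for genes without one. A long body has more room for an overlap, and the part of this counting rule in the difference was not tested.

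The genes with the most bases in domains were *Uros* with 29874 bp and *Nrf1* with 29341 bp, in 3 domains each. *Uros* counts through its 5′ end, since 1 of these domains lies in *Bccip* and 2 lie in *Dhx32*. *Msi2*, the gene of an RNA-binding protein of neural progenitors, had 27734 bp in 5 intronic domains, of which 3 held Otx2 and none held Neurod1. *Plch1*, a phospholipase C gene, had 26449 bp in 5 domains, 2 of them with Otx2. *Rag2* also had 5, though none of them overlapped its body and 3 were intergenic. *Ncam1*, a neural cell adhesion gene, had 4 domains with 21682 bp, and *Casz1* and *Arntl* had 3 each with 22734 and 22282 bp. *Tox* and *Cux1*, both TF genes, had 3 domains each, with Otx2 in all 3 at *Tox* and in 1 at *Cux1*.

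**Figure D5:**
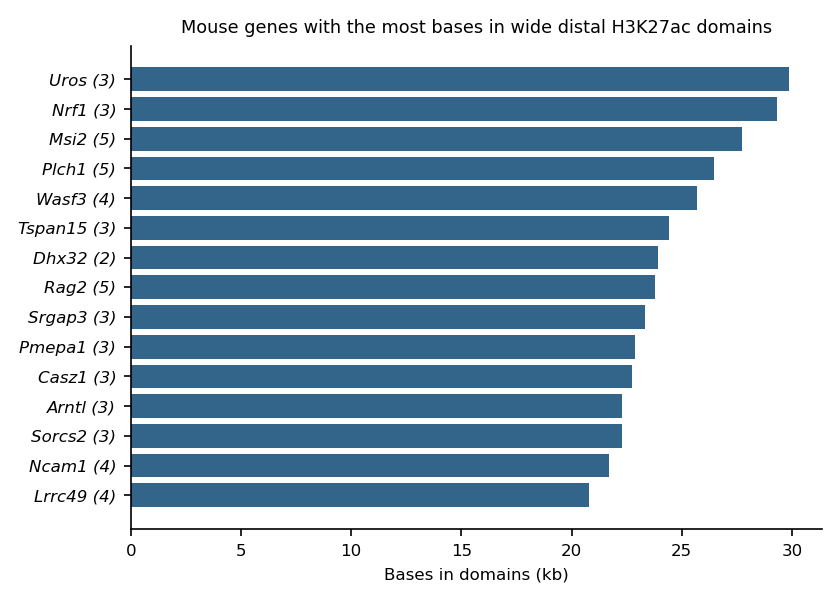
The 15 mouse protein-coding genes with the most bases in wide distal H3K27ac domains, in kb, with the number of domains in brackets. Values run from 29874 bp at *Uros* to 20774 bp at *Lrrc49*, and a domain can count for more than 1 gene.

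Retinal cell class genes were read from 12 lists. Among 12 Müller glia genes, 4 had a domain, against 2.23% of all coding genes (489 of 21911). *Dkk3*, a secreted Wnt modulator, had 3. *Slc1a3*, the glial glutamate transporter, *Kcnj10*, a glial potassium channel, and *Rlbp1*, a retinoid-binding protein gene, had 1 each. The *Rlbp1* domain lay in *Abhd2*, 22583 bp from the 5′ end of *Rlbp1*. None of these 6 domains held Neurod1, and 4 held Otx2, with folds of 3.36 to 3.56. The *Dkk3* domains lay in introns in a stretch of 22643 bp, with H3K27ac folds of 6.04 to 6.78. Of 22 progenitor and temporal genes, 3 had a domain, against the same 2.23% of all coding genes. *Notch1*, the receptor that holds progenitors undifferentiated, had an intronic domain of 6434 bp with both factors and another of 4246 bp, outside coding genes and 15996 bp from its 5′ end, with Otx2 only. *Nfix*, a TF gene of late progenitors, had a domain with Otx2 at 2.09 and Neurod1 at 2.47, and *Meis1*, a homeodomain TF gene, had one of 5193 bp with neither.

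No domain was found at any of 14 photoreceptor TF genes or 20 photoreceptor function genes. The same was true of 12 proneural, 12 bipolar, 9 pigment epithelium, 10 vascular, 6 astrocyte and lens and 10 ubiquitously transcribed genes. Among all coding genes the share with a domain was 2.23%, so short lists without one say little. One of 20 amacrine, horizontal and ganglion cell genes had a domain, *Slc6a9*, a glycine transporter gene, and 1 of 8 microglia markers did, *Ptprc*, whose 5′ end lay 245523 bp away. The photoreceptor TF genes did have other H3K27ac peaks. Distal peaks of 2000 to under 4000 bp were found at 6 of the 14 (*Otx2*, *Neurod1*, *Prdm1*, *Rorb*, *Thrb* and *Mef2d*), against 9.21% of all coding genes. Wide peaks with H3K4me3 were found at 3 of them (*Crx*, *Rorb* and *Mef2c*), against 0.589% of all coding genes. The same 2 classes were found at 11 and 7 of the 22 progenitor genes. At the 12 Müller glia genes they were found at 3 (*Slc1a3*, *Dkk3* and *Id3*) and 2 (*Dkk3* and *Car2*). The lists are short and differ in gene length, with median lengths of 12.6 kb for the Müller glia, 20.7 kb for the progenitor and 25.3 kb for the photoreceptor TF genes, and the part of gene length in these counts was not tested.

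Motif letters were counted in 300-base windows of GRCm38 like those printed above. At the 534 Otx2 summits in mouse domains, TAATC or TAAGC was found in 67.0% of windows (62.9 to 70.9). This share was 67.2% at Otx2 summits in narrower distal peaks and 56.5% at all Otx2 summits. The median share of G and C bases in the windows was 53.7% at all Otx2 summits. It was lower at Otx2 summits in domains and at those in narrower distal peaks, with 49.7% in the latter. TAATC alone was found at 38.4% of the Otx2 summits in domains and 43.6% of those in narrower distal peaks. At H3K27ac summits the pooled share was 53.1% in domains, 54.2% in the 96 domains with neither factor and 56.7% in narrower distal peaks. TAATC alone was less frequent at the H3K27ac summits of domains, with 22.3% (18.8 to 26.2) against 31.4% (31.0 to 31.7) in narrower distal peaks. TAAGC was found in 37.4% and 37.5%. The median share of G and C bases in these windows was 49.3% in domains and 46.0% in narrower distal peaks. The part of base composition in the motif shares was not tested. The longer core TAATCC, which contains TAATC, was found in 16.9% of the windows at Otx2 summits in domains and in 21.6% of those in narrower distal peaks. It was found in 18.2% at all Otx2 summits and in 8.68% at the H3K27ac summits of domains. CAGATG was found in 60.2% of windows at the 171 Neurod1 summits in domains (52.8 to 67.3), 56.5% at those in narrower distal peaks and 52.1% at all Neurod1 summits. It was found in 27.1% of windows at H3K27ac summits of domains and 25.1% of those of narrower distal peaks. The pooled share of TAATC or TAAGC at Otx2 summits was thus close in domains and narrower distal peaks. For TAATCC the share was lower in domains (13.9 to 20.3) than in narrower distal peaks (20.5 to 22.7). The share of TAATCC at all Otx2 summits, 18.2%, lay inside the interval of the domains.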

How the data were processed

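The deposited data are 10 macs2 peak lists, 1 for each of 5 targets in 2 species, from 36 libraries that include IgG. The authors trimmed reads with cutadapt 3.5 and Trim Galore 0.6.4, aligned them with Bowtie2 to GRCm38 or HiC_Itri_2, dropped a MAPQ of 30 or below with SAMtools 1.12, removed duplicates, merged technical replicates and called peaks jointly over the libraries of a target at a q-value of 0.05. For mouse they also removed blacklisted and mitochondrial peaks. The fold enrichment over IgG is a ratio that the authors deposited, and the significance is the deposited −log10 q-value. Neither was rescaled. Read depth is not in the lists and is unknown, and no column of per-sample values was used.

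Peaks were compared in Python 3.11.15 (pandas 2.3.3, numpy 2.4.6, scipy 1.17.1), with an overlap of at least 1 bp, and plots drawn with matplotlib 3.10.9. Widths are end minus start, positions are printed from 1, and summits are the deposited offsets. Overlaps, covered bases and gaps of 800 intervals and the merging into 202 were tested on simulated data, with 0 differences from bedtools 2.31.1. Mouse genes are from GENCODE M21 on GRCm38, and sequence from the RefSeq GRCm38.p6 genome. No 13LGS genome or annotation was used here, so 13LGS domains are given by position.

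The members, gene lists and named regions were chosen with earlier results of these data known. Named in mouse were the 15 widest domains, the 10 with the highest Otx2 and Neurod1 folds, those at listed genes and the 10 genes with the most domain bases, and in 13LGS the 10 widest and the 10 highest for each factor. The text gives leading ones of each, and 1 domain that the rule names is not reported here. *Tox*, *Cux1*, *Ncam1*, *Arntl*, *Vipr2*, *Wdr75* and the domains with the highest H3K27ac fold were added after their values were seen, as were the motif letters. Alternatives were other widths, merged peaks, other H3K4me3 rules, stricter or equal lists, overlaps of 250 bp, summits, and other gene rules. No leave-one-out was possible, since each list holds 1 pooled value per peak.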

Additional observations from a re-analysis of the deposited data

How the results depend on the processing

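No paired analysis was possible because each list pools its libraries and the results come from no test. For the same reason no library could be left out. Of 84 values recomputed, 43 stayed within the 95% interval of the reported share, or within 1.5 times the reported count, and 41 did not. For the share of bases under H3K4me1 this interval treated each base as a separate trial, which makes it too narrow. A change as small as 93.98% to 93.89% in 13LGS was therefore counted among the 41. Values are given for 13LGS and then mouse.

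The number of domains was 2716 and 1169 from 3000 bp, 712 and 218 from 5000 bp, and 2299 and 960 with H3K27ac peaks within 500 bp merged. With 3000 bp, Otx2 was in 63.6% and 66.8% of domains, Neurod1 in 19.1% and 24.6%, and both in 17.3% and 23.0%. From 5000 bp, Otx2 was in 79.2% and 85.8%, Neurod1 in 26.8% and 34.4%, and both in 25.0% and 33.9%. Merging gave Otx2 in 66.0% and 69.0%. With factor peaks limited to a −log10 q from 5 up, Otx2 was in 53.4% and 65.3%, Neurod1 in 17.5% and 25.2%, and both in 15.3% and 23.6%. In the 500 bp summit window, Otx2 was in 48.1% and 58.3%, Neurod1 in 12.4% and 17.98%, and both in 11.2% and 16.5%. An overlap of 250 bp gave 66.9% for Otx2, 19.7% for Neurod1 and 18.4% for both in 13LGS. With H3K4me1 peaks limited to a −log10 q from 5 up, 93.5% and 88.8% of bases lay under them, and 93.9% in 13LGS with equal numbers of H3K4me1 peaks. In mouse, a coding gene body was overlapped by 73.7% from 3000 bp and 83.5% from 5000 bp, and any annotated gene by 83.9%. The occupancy shares after merging or under other H3K4me3 rules, and the lists reduced to equal numbers of H3K27ac, H3K4me3 and H3K4me1 peaks, were chosen after seeing the data. Read depth is unknown, which limits how far the absence of a factor peak can be read.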

Other observations

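The mouse domains were also read against small RNA genes, a comparison chosen after the values were seen. The hairpins of 4 annotated miRNAs lay inside a domain: *Mir3089*, *Mir343*, *Mir6346* and *Mir7662*, the last within the *Tspan15* domain that held neither factor. The cluster of *Mir182*, *Mir96* and *Mir183*, miRNAs abundant in photoreceptors, lay outside the domains. It was 10479, 14007 and 14229 bp from the nearest one, chr6:30146206-30155438, which overlaps the 3′ part of *Nrf1*.

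The share of H3K27ac peaks that were domains differed between chromosomes. Domains made up 1.23% of the H3K27ac peaks on mouse chromosome 7 and 1.15% on chromosome 2, but 0.135% on the X chromosome, where 1 domain was found among 743 H3K27ac peaks. In 13LGS the share ran from 0.651% on Itri10 to 1.998% on Itri3.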
